A study of Arabidopsis thaliana with 18 samples.

Results

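The comparison described here sets rosettes of the Arabidopsis thaliana mutant ref5-1 against rosettes of ref2-1, at the level of RNA and across all genes. It uses 6 of the 18 libraries of the series, 3 of each mutant, chosen by the genotype in their labels. Both mutants are in the Columbia-0 ecotype and both keep MED5A and MED5B. ref5-1 carries a missense allele of CYP83B1, and ref2-1 has lost the function of CYP83A1. Further groups serve to place the values. They are 3 libraries of ref5-1 med5a-1 med5b-1 and 3 of ref2-1 med5a-1 med5b-1, in which the same lesions are combined with insertions in both MED5 genes, and 3 of wild-type Columbia-0. Every library was made from messenger RNA of 5 whole rosettes pooled from different pots, harvested on day 18 under a 16 h photoperiod. A pool averages leaves of all ages and all leaf cell types, so that fewer cells of a type and less RNA per cell cannot be told apart in any value below.

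Glucosinolates are sulfur-rich defence compounds of the cabbage order that release toxic products when a myrosinase meets them in crushed tissue. Aliphatic glucosinolates start from methionine, whose side chain is lengthened before CYP79F enzymes turn it into an aldoxime, the substrate of CYP83A1. Indole glucosinolates start from tryptophan, which CYP79B enzymes turn into indole-3-acetaldoxime, the substrate of CYP83B1 and also a source of auxin. MED5 is a subunit of Mediator, the complex that links transcription factors to RNA polymerase, and plants with either lesion make less of the phenylpropanoids than wild type. The question put to these libraries is how the lesion of the indole branch and the lesion of the aliphatic branch differ while MED5 is present.

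The genes named by the labels were read first. CYP83A1 had 466, 471 and 438.5 CPM (counts scaled to the size of each library) in ref5-1, against 124, 116.5 and 128.5 CPM in ref2-1. In wild type it had 345, 399.5 and 462 CPM. All ref2-1 libraries lay below every other one, and the log2 fold change of ref5-1 over ref2-1 was 1.90 ± 0.11 (standard error, as after every ± below; edgeR adjusted p = 3.26e-08). CYP83B1 had 222, 259.5 and 259 CPM in ref5-1, against 251, 235 and 338 CPM in ref2-1 and 199.7, 212 and 349 CPM in wild type. The groups overlapped and the gene was not called (adjusted p = 0.62). Because ref5-1 alters the protein, this level does not check the label. MED5B was not called between the mutants, at 27.4, 25.6 and 29.9 CPM in ref5-1 and 30.7, 26.3 and 26.6 CPM in ref2-1. In the lines with the insertions it lay between 6.92 and 8.47 CPM. MED5A was slightly higher in ref5-1 than in ref2-1, by 0.34 ± 0.09 on the log2 scale (adjusted p = 0.0118, and 0.0642 without ref2-1 replicate 3).

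The 6 libraries held between 22129764 and 28355294 gene counts, and between 22225 and 22606 genes had a count. The 2 mutants differed widely. Of 19897 genes tested, 2066 were called higher in ref5-1 than in ref2-1 at an adjusted p under 0.05, or 10.4%. The number called lower was 2192, or 11%. The large differences lay mostly on the lower side, since 374 of the 512 called genes with at least a 4-fold difference were lower in ref5-1. The median log2 fold change over all tested genes was -0.015. In a principal component analysis of the libraries of ref5-1, ref2-1 and wild type, the first component held 54.3% of the variance and set ref2-1 apart from the rest, and the second held 19.4% and set ref5-1 apart from wild type. Without ref2-1 replicate 2 the called genes fell to 3072, and when the 6 libraries were fitted alone 2816 genes were called.

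The methionine side of the pathway was lower in ref5-1 than in ref2-1. Of the 10 genes of chain elongation and its transport, 9 were lower and none was higher, with a median log2 fold change of -0.77. MAM3, a methylthioalkylmalate synthase that builds long chains, had 18.3, 21.9 and 22.1 CPM in ref5-1, against 113, 69.8 and 108 CPM in ref2-1. In wild type it had 10.4, 13.2 and 16.96 CPM. The mutants did not overlap, and MAM3 differed by -2.22 ± 0.22 (adjusted p = 1.23e-05). MAM1, the synthase for short chains, had 406, 489 and 482 CPM in ref5-1, against 980.9, 688 and 1021 CPM in ref2-1. Its ref5-1 libraries overlapped those of wild type, which had 314, 363 and 465 CPM. The isopropylmalate isomerase and dehydrogenase genes IIL1, IPMI2, IPMI1 and IMD1 were lower by 0.56 to 0.79 on the log2 scale. IMD3, a dehydrogenase of leucine synthesis, was the 1 member that was not called, at 0.12 ± 0.08 (adjusted p = 0.34).

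The 2 mutants were also set against wild type, in comparisons that share the wild-type libraries with each other and the mutant libraries with the main one. In ref5-1 the chain elongation list had 2 genes called higher, where 5.12% of all tested genes were, and none lower, where 3.6% were. In ref2-1 it had 9 genes called higher, where 13.5% of all tested genes were, and 1 lower, where 11.2% were. The medians were 0.26 for ref5-1 over wild type and 1.05 for ref2-1 over wild type. The 2 genes called in ref5-1 were IPMI2, at 0.55, and IPMI1, at 0.45.

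In the aliphatic core, CYP83A1 itself was the single gene called higher in ref5-1, and 4 of the 8 genes were lower. CYP79F1, which makes the aldoxime, had 412, 475.5 and 480.4 CPM in ref5-1 and 974, 636 and 916 CPM in ref2-1, a difference of -0.885 ± 0.13 (adjusted p = 0.000133). CYP79F1 has a near-identical neighbour, CYP79F2, so that both counts are uncertain. CYP79F2 differed by -0.17 ± 0.12 and was not called. GSTU20, a glutathione transferase of this branch, had 866, 775 and 732 CPM in ref5-1, against 1408, 1068 and 1336 CPM in ref2-1. The sulfotransferases SOT17 and SOT18, which carry out the last step of core synthesis, were lower by 0.51 and 0.30 on the log2 scale. The call of SOT18 was marginal, with an adjusted p of 0.0476, and was lost (adjusted p up to 0.2) when either ref5-1 replicate 2 or 3 or ref2-1 replicate 1 or 3 was left out. UGT74C1 and GSTF11 were not called, at -0.14 ± 0.12 and -0.38 ± 0.14.

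The genes that modify the finished side chain did not move as 1 group. Of 8 tested genes, 3 were higher in ref5-1 and 3 were lower. The dioxygenase gene AOP2 was lower, and so were the S-oxygenases FMOGS-OX1 and FMOGS-OX3. The RNA level of AOP2 does not show whether alkenyl forms were made in these plants. FMOGS-OX2, another S-oxygenase, had 49.5, 48.8 and 43.2 CPM in ref5-1, against 15.2, 9.55 and 18.4 CPM in ref2-1 and 29.9, 19.7 and 31.5 CPM in wild type. All its ref5-1 libraries lay above wild type and all its ref2-1 libraries below (1.72 ± 0.25, adjusted p = 0.000257). FMOGS-OX4 was also higher, by 0.77 ± 0.11 (adjusted p = 0.000103). It had 20.6, 22.8 and 20.7 CPM in ref5-1, against 11.98, 12.1 and 13.6 CPM in ref2-1, which overlapped wild type. The third gene called higher, BZO1, which makes benzoyloxy forms in seeds, had few counts, with 0.29, 0.161 and 0.281 CPM in ref5-1 and 0.0394, 0.0333 and 0.0453 CPM in ref2-1. The count of genes called higher was 2 without any 1 library other than ref5-1 replicate 2. GSL-OH, which hydroxylates the butenyl form, and FMOGS-OX5 were not called, at -0.26 ± 0.11 and -0.11 ± 0.08.

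**Figure D1:**
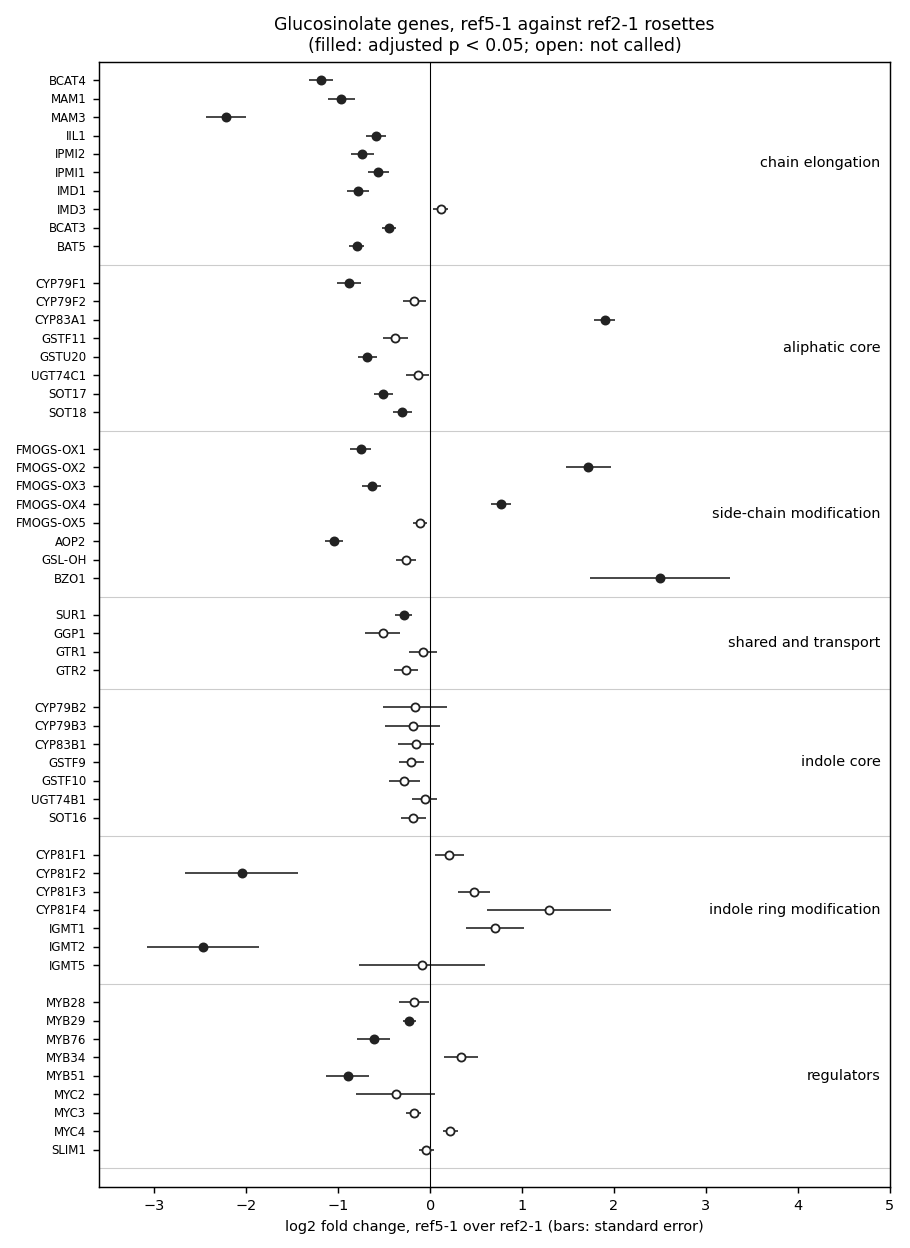
Log2 fold change of ref5-1 over ref2-1 (x axis, bars are standard errors) for the tested genes of glucosinolate synthesis, grouped by step down the y axis. Filled points passed an adjusted p of 0.05 and open points did not: 9 of the 10 chain elongation genes lie left of 0 as filled points, and all 7 indole core genes are open.

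In the core of the tryptophan side of the pathway no gene was called. None of the 7 indole core genes was called between ref5-1 and ref2-1 by edgeR, where 0 had an unadjusted p under 0.05, and DESeq2 called 0. Their median was -0.18. CYP79B2 and CYP79B3, which make indole-3-acetaldoxime, differed by -0.17 ± 0.35 and -0.19 ± 0.30. GSTF9, GSTF10, UGT74B1 and SOT16 lay between -0.28 and -0.06. CYP79B2 had 70.4, 102 and 104 CPM in ref5-1 and 96.5, 74.0 and 141 CPM in ref2-1, which overlapped. The highest library of all 6 for CYP79B3, CYP83B1 and GSTF9 was ref2-1 replicate 3, with 163, 338 and 1101 CPM. Against wild type edgeR called no gene of the list in ref5-1, where 1 had an unadjusted p under 0.05 and DESeq2 called 1, and in ref2-1 it had GSTF9, higher by 0.61 (adjusted p = 0.00332).

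Enzymes that decorate the indole ring divided between them. CYP81F2, which hydroxylates it, had 0.29, 0.281 and 0.642 CPM in ref5-1 and 1.62, 1.83 and 1.63 CPM in ref2-1 (-2.05 ± 0.61, adjusted p = 0.0261). The methyltransferase gene IGMT2 had 0.58, 0.362 and 0.281 CPM in ref5-1 and 1.89, 2.83 and 2.08 CPM in ref2-1 (-2.47 ± 0.61, adjusted p = 0.00882). Both are low-count genes, and CYP81F2 lost its call without ref5-1 replicate 1, ref5-1 replicate 2 or ref2-1 replicate 2 (adjusted p up to 0.0956). CYP81F1, CYP81F3, CYP81F4, IGMT1 and IGMT5 were not called, with values from -0.09 to 1.29. CYP81F3 and IGMT1 were called higher in ref5-1 than in wild type, by 1.36 and 1.26. Without ref2-1 replicate 1 the list had 1 gene called higher. IGMT1 and IGMT2 are near-identical copies, so that their counts are uncertain.

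Among the regulators, MYB51, a factor of the indole branch, was lower in ref5-1, at 3.97, 4.38 and 4.21 CPM against 8.00, 9.45 and 5.84 CPM in ref2-1 (-0.90 ± 0.23, adjusted p = 0.011, and 0.0624 without ref2-1 replicate 2). MYB29 and MYB76, factors of the aliphatic branch, were lower by 0.23 and 0.61 on the log2 scale. MYB28, the leading factor of that branch, differed by -0.18 ± 0.16, with 97.2 CPM in ref5-1 replicate 1 and 165 and 148 CPM in the other ref5-1 libraries. The count of 3 regulators was not firm: 1 was left without ref5-1 replicate 1, ref2-1 replicate 1 or ref2-1 replicate 3, and 1 when the 6 libraries were fitted alone. MYB34, MYC2, MYC3, MYC4 and SLIM1 were not called, although without ref2-1 replicate 1 the list had 1 gene called higher.

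Sulfate enters both branches through the activated sulfate donor. Of 19 tested genes of sulfate uptake and reduction, 5 were lower in ref5-1 and 1 was higher. GSH2, the second enzyme of glutathione synthesis, had 70.5, 63.7 and 75.7 CPM in ref5-1, against 104, 99.7 and 136 CPM in ref2-1 (-0.69 ± 0.14, adjusted p = 0.0019). ATPS3 and APK2, which activate sulfate, were lower by 0.71 and 0.52 on the log2 scale. The gene called higher was ATPS4, at 0.58 ± 0.17, and no gene was called higher without ref5-1 replicate 1, ref2-1 replicate 1 or ref2-1 replicate 3. Against wild type, 6 genes were higher and 1 lower in ref5-1, and 13 were higher and none lower in ref2-1. The lower count fell to 3 without ref5-1 replicate 2, ref2-1 replicate 1 or ref2-1 replicate 3 and with the 6 libraries fitted alone.

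Genes that act on glucosinolates after tissue damage were partly higher in ref5-1. BGLU23, a beta-glucosidase of endoplasmic reticulum bodies, had 356, 384 and 408 CPM in ref5-1, against 144, 88.3 and 112 CPM in ref2-1. Wild type, at 95.8, 132 and 155 CPM, lay among the ref2-1 libraries, and BGLU23 differed by 1.74 ± 0.22 between the mutants (adjusted p = 9.3e-05). ESM1, which favours isothiocyanate over nitrile, had 597, 891 and 767 CPM in ref5-1 and 487, 338 and 505 CPM in ref2-1 (0.76 ± 0.16, adjusted p = 0.00336). In all, 4 of 10 tested genes were higher and 1 was lower, and the median was 0.63. The lower one was PEN2, an atypical myrosinase of pathogen defence, at -0.355 ± 0.08. The higher count fell to 2 without ref2-1 replicate 1 or ref2-1 replicate 2, since NSP1 and the myrosinase gene TGG1 lost their calls there. NSP1 also lost its call without ref5-1 replicate 1 (adjusted p up to 0.0926). TGG1 also lost its call without ref5-1 replicate 2, ref5-1 replicate 3 or ref2-1 replicate 3 (adjusted p up to 0.167). With the 6 libraries fitted alone TGG1 was not called (adjusted p = 0.147). TGG1 had 1408 CPM in ref5-1 replicate 1 and 2798 and 2925 CPM in the other ref5-1 libraries, against 1663, 1262 and 1717 CPM in ref2-1. TGG2, ESP, NSP5, BGLU18 and NAI2 were not called.

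Over all tested genes, 11% were called lower in ref5-1 than in ref2-1, and of 10 tested genes of tryptophan and camalexin synthesis 1 was. That was PAD3, the last enzyme of the phytoalexin camalexin, at 0.621, 0.482 and 0.482 CPM in ref5-1 and 4.45, 17.4 and 7.34 CPM in ref2-1 (-4.21 ± 1.37, adjusted p = 0.0459). CYP71A13, which precedes it and has a near-identical copy in CYP71A12, had 0.166, 0 and 0.161 CPM in ref5-1 and 3.67, 18.1 and 3.22 CPM in ref2-1. The groups did not overlap, but the spread within ref2-1 was wide and the gene was not called (adjusted p = 0.0544). PAD3 lost its call without any 1 of the ref5-1 libraries, ref2-1 replicate 2 or ref2-1 replicate 3 (adjusted p up to 0.148). The list had 2 genes called lower without ref2-1 replicate 1, and 4 with the 6 libraries fitted alone.

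Auxin-responsive genes were mostly higher in ref5-1. GH3 genes encode enzymes that join auxin to amino acids, and auxin induces many of them. All 7 tested GH3 genes were higher in ref5-1 than in ref2-1, with a median of 1.52. GH3.3 had 46.5, 47.8 and 49.8 CPM in ref5-1, against 11.2, 11.1 and 18.2 CPM in ref2-1 and 7.97, 10.6 and 10.96 CPM in wild type. Its ref5-1 libraries stood alone above the other 6 (1.84 ± 0.18, adjusted p = 7.51e-06). GH3.1 was rare outside ref5-1, at 1.78, 1.73 and 1.97 CPM there and 0.197, 0.2 and 0.317 CPM in ref2-1. GH3.17 had 24.8, 21.4 and 21.6 CPM in ref5-1 and 9.70, 11.5 and 8.75 CPM in ref2-1. GH3.2 was higher by 0.76 ± 0.18.

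Members of the GH3 family were not alike in where the difference from wild type lay. In ref5-1, 6 were called higher than in wild type, and in ref2-1 1 was called lower than in wild type. That one was GH3.9, with 22.6, 21.5 and 24.7 CPM in ref5-1, 10.2, 15.1 and 12.5 CPM in ref2-1 and 23.9, 22.8 and 22.7 CPM in wild type. ref5-1 and wild type overlapped and ref2-1 lay below both (0.86 ± 0.12 for ref5-1 over ref2-1, adjusted p = 8.41e-05).

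Aux/IAA genes, whose products repress auxin response factors and are themselves induced by auxin, were higher in ref5-1 in 11 of 13 tested genes, with a median of 0.67. IAA5 had 6.54, 5.55 and 5.78 CPM in ref5-1, against 1.81, 1.498 and 1.86 CPM in ref2-1 and 4.47, 3.22 and 3.68 CPM in wild type. The ref5-1 libraries lay above wild type and the ref2-1 libraries below it (1.79 ± 0.16, adjusted p = 9.31e-07). IAA14 had the same arrangement, with 40.1, 43.9 and 46.2 CPM in ref5-1, 16.4, 17.04 and 17.1 CPM in ref2-1 and 27.99, 27.9 and 26.3 CPM in wild type. IAA1 differed by 1.30 ± 0.12 (adjusted p = 2.26e-06). Against wild type, 7 members were called higher in ref5-1 and none lower, and 6 were called lower in ref2-1 and none higher. IAA4 and IAA30 were not called between the mutants.

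The SAUR genes, short-lived auxin-induced genes tied to growth, were arranged otherwise. All 14 were higher in ref5-1 than in ref2-1, with a median of 1.23. SAUR66 had 10.3, 10.4 and 8.83 CPM in ref5-1, against 2.995, 3.49 and 4.85 CPM in ref2-1 (1.39 ± 0.18, adjusted p = 4.51e-05). Wild type had 11.4, 9.86 and 8.65 CPM and overlapped ref5-1. SAUR24 had 10.6, 8.84 and 7.79 CPM in ref5-1, 3.67, 3.79 and 4.80 CPM in ref2-1 and 10.2, 9.07 and 8.46 CPM in wild type. None of the 14 was called by edgeR between ref5-1 and wild type, where the smallest adjusted p was 0.315, 0 had an unadjusted p under 0.05 and DESeq2 called 0. In ref2-1, 13 were called lower than in wild type. Several members are near-identical copies of each other, so that their counts are uncertain.

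**Figure D2:**
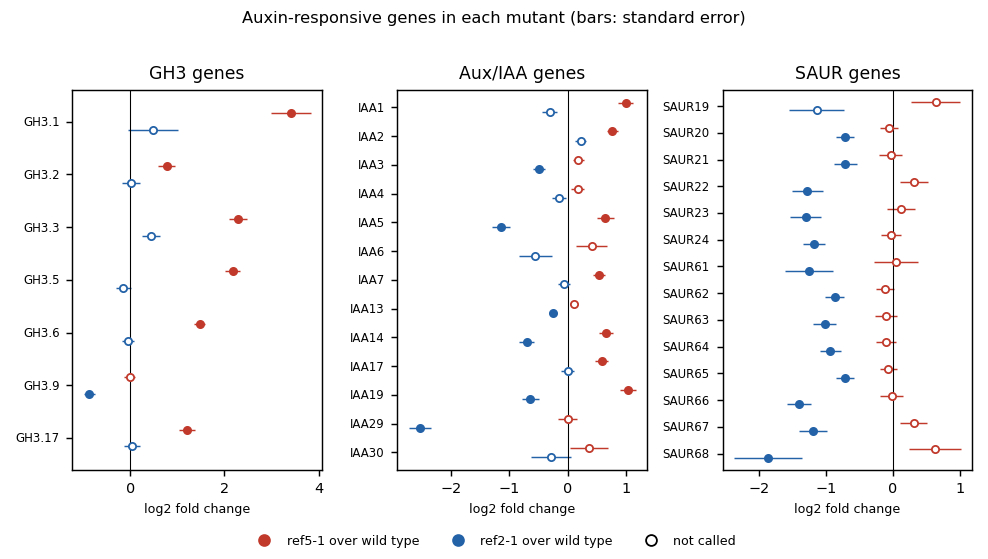
Log2 fold changes over wild type (x axes, bars are standard errors) of the tested GH3, Aux/IAA and SAUR genes, for ref5-1 in red and ref2-1 in blue, with open points not called. GH3 points of ref5-1 lie right of 0 for 6 of 7 genes, while 13 of 14 SAUR genes have a called ref2-1 point left of 0 and no called ref5-1 point. Both sets of points share the wild-type libraries.

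Genes of auxin synthesis and breakdown were called between the mutants about as often as all tested genes, where 10.4% were higher and 11% lower. Of 10 tested, DAO2, which oxidizes auxin, was higher, at 7.37, 7.68 and 7.38 CPM in ref5-1 and 2.17, 1.198 and 4.17 CPM in ref2-1 (1.60 ± 0.40, adjusted p = 0.00959). AMI1, an amidase, was lower by 0.45 ± 0.11, a call lost with the 6 libraries fitted alone (adjusted p = 0.0739). TAA1 and YUC2, of the main auxin route, differed by -0.23 ± 0.14 and -0.23 ± 0.21 and were not called. Both were called lower in ref5-1 than in wild type, by 0.45 and 0.69 on the log2 scale. NIT1, NIT2, NIT3, DAO1, UGT74D1 and YUC8 were not called between the mutants.

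Shade and growth genes followed in part. HFR1, a light-response factor, had 3.601, 3.18 and 4.01 CPM in ref5-1, against 0.788, 1.17 and 0.589 CPM in ref2-1 (2.05 ± 0.34, adjusted p = 0.00037). HAT2, an auxin-induced homeobox gene, was higher by 0.94 ± 0.08 (adjusted p = 7.31e-07). PRE1, PIF4 and PIL1 were also called higher, whereas ATHB2 and the wall enzyme gene XTH15 were lower, by 0.55 and 1.21 on the log2 scale. PAR1 and PIF5 were not called, so that 5 of the 9 genes were higher and 2 lower. The higher count fell to 3 without ref2-1 replicate 1, and ATHB2 lost its call without that library, ref5-1 replicate 1 or ref5-1 replicate 3 (adjusted p up to 0.0743). Of 12 genes of wall loosening, 3 were higher and 2 lower. XTH17 was higher by 1.875 ± 0.26, and the expansin gene EXPA1 lower by 0.80 ± 0.11, with 235, 314 and 297 CPM in ref5-1 and 487, 546 and 438 CPM in ref2-1.

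Type-A response regulators, which cytokinin induces and which damp its signal, were lower in ref5-1 in 5 of 8 tested genes. ARR5 had 7.16, 7.11 and 5.94 CPM in ref5-1, against 14.6, 15.1 and 12.8 CPM in ref2-1 and 9.81, 12.9 and 10.6 CPM in wild type (-1.07 ± 0.13 between the mutants, adjusted p = 3.13e-05). ARR4 and ARR6 differed by -0.87 ± 0.12 and -1.01 ± 0.16. ARR15 lay below wild type in both mutants, at 3.89, 5.02 and 4.45 CPM in ref5-1 and 6.35, 8.19 and 5.39 CPM in ref2-1, against 13.6, 13.9 and 12.97 CPM in wild type. ARR9 was higher by 0.29 ± 0.10, a call lost without ref5-1 replicate 1 or any 1 of the ref2-1 libraries, and ARR7 and ARR8 were not called. The lower count fell to 3 without ref2-1 replicate 2 and with the 6 libraries fitted alone, since ARR15 and ARR16 lost their calls.

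Salicylate signalling was lower in ref5-1 in every one of 15 tested genes, with a median of -2.39. SAG101, a partner of EDS1, had 8.61, 7.52 and 8.87 CPM in ref5-1, against 20.4, 21.1 and 19.9 CPM in ref2-1. In wild type SAG101 had 6.82, 7.65 and 6.87 CPM, which overlapped ref5-1 (-1.30 ± 0.15 between the mutants, adjusted p = 1.48e-05). NPR1, the salicylate receptor and coactivator, had 19.2, 21.8 and 22.5 CPM in ref5-1, 32.8, 37.5 and 37.7 CPM in ref2-1 and 18.8, 21.4 and 21.4 CPM in wild type. ICS1, which makes the precursor of salicylate, had 20.4, 19.8 and 21.7 CPM in ref5-1, against 52.5, 30.0 and 44.9 CPM in ref2-1 (-1.04 ± 0.25, adjusted p = 0.00917). CBP60G, an activator of ICS1, differed by -3.18 ± 0.56. With any 1 library left out, 12 to 14 of the 15 were called lower, and 15 with the 6 libraries fitted alone.

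The comparison with wild type separated 2 members of this list from the rest. PR2 and PR5, secreted defence proteins, were the 2 genes of the 15 called higher in ref5-1 than in wild type, and all 15 were called higher in ref2-1 than in wild type. PR2 had 39.2, 41.2 and 27.0 CPM in ref5-1, against 173, 232 and 182 CPM in ref2-1 and 0.518, 0.637 and 4.21 CPM in wild type. The 3 genotypes did not overlap for PR2, with ref5-1 in the middle.

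Of 4 tested genes of N-hydroxypipecolic acid, the signal of systemic resistance, 2 were lower in ref5-1. FMO1, which makes that signal, had 0, 0.0804 and 0.0401 CPM in ref5-1 and 2.21, 4.92 and 2.49 CPM in ref2-1 (adjusted p = 0.00235). ALD1 had 0.124, 0.121 and 0.12 CPM in ref5-1 and 1.62, 13.2 and 8.29 CPM in ref2-1. Fitted folds against levels this low are no bound. ALD1 lost its call without ref5-1 replicate 1 or ref5-1 replicate 2 (adjusted p up to 0.0527), which leaves 1 called gene of the 4. SARD4 and UGT76B1 were not called. WRKY factors, which act downstream of defence signals, were lower in 9 of 12 tested genes and higher in none. WRKY53 had 2.07, 1.08 and 1.77 CPM in ref5-1 and 8.95, 12.2 and 8.38 CPM in ref2-1 (-2.58 ± 0.43, adjusted p = 0.000672).

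All 16 receptor and signalling genes of immunity on the list were lower in ref5-1 than in ref2-1, with a median of -0.87. FLS2, the receptor of bacterial flagellin, had 12.1, 14.03 and 12.2 CPM in ref5-1, against 26.5, 27.6 and 26.0 CPM in ref2-1 and 14.99, 16.4 and 14.2 CPM in wild type. Its ref5-1 libraries lay below wild type as well, without a call there, and the difference between the mutants was -1.06 ± 0.10 (adjusted p = 2.63e-06). EFR, the receptor of a bacterial elongation factor, differed by -1.81 ± 0.26. RPP4, an intracellular receptor of the downy mildew pathogen, had 71.2, 109 and 107 CPM in ref5-1 and 185, 184 and 173 CPM in ref2-1 (-0.915 ± 0.12, adjusted p = 6.49e-05). BIK1, a kinase below FLS2, differed by -0.79 ± 0.13. None of the 16 was called by edgeR between ref5-1 and wild type, where the smallest adjusted p was 0.072, 4 had an unadjusted p under 0.05 and DESeq2 called 1. All 16 were called higher in ref2-1 than in wild type. Between the mutants, 12 to 15 of the 16 were called lower with any 1 library left out, and 13 with the 6 libraries fitted alone.

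Receptor-like kinases of the CRK and WAK families were lower in ref5-1 in all 12 tested genes, with a median of -2.74. CRK4, a cysteine-rich kinase, had 2.57, 2.97 and 2.61 CPM in ref5-1, against 30.7, 46.3 and 30.8 CPM in ref2-1 and 2.07, 2.81 and 2.01 CPM in wild type. ref5-1 overlapped wild type and ref2-1 stood far above both (-3.73 ± 0.51, adjusted p = 0.000281). WAK3, a wall-associated kinase, had 0.497, 0.764 and 0.321 CPM in ref5-1, 9.66, 13.2 and 10.7 CPM in ref2-1 and 0, 0.075 and 0.0379 CPM in wild type. None was called between ref5-1 and wild type by edgeR, where CRK7 had the smallest adjusted p, 0.0594, 2 genes had an unadjusted p under 0.05 and DESeq2 called 2.

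**Figure D3:**
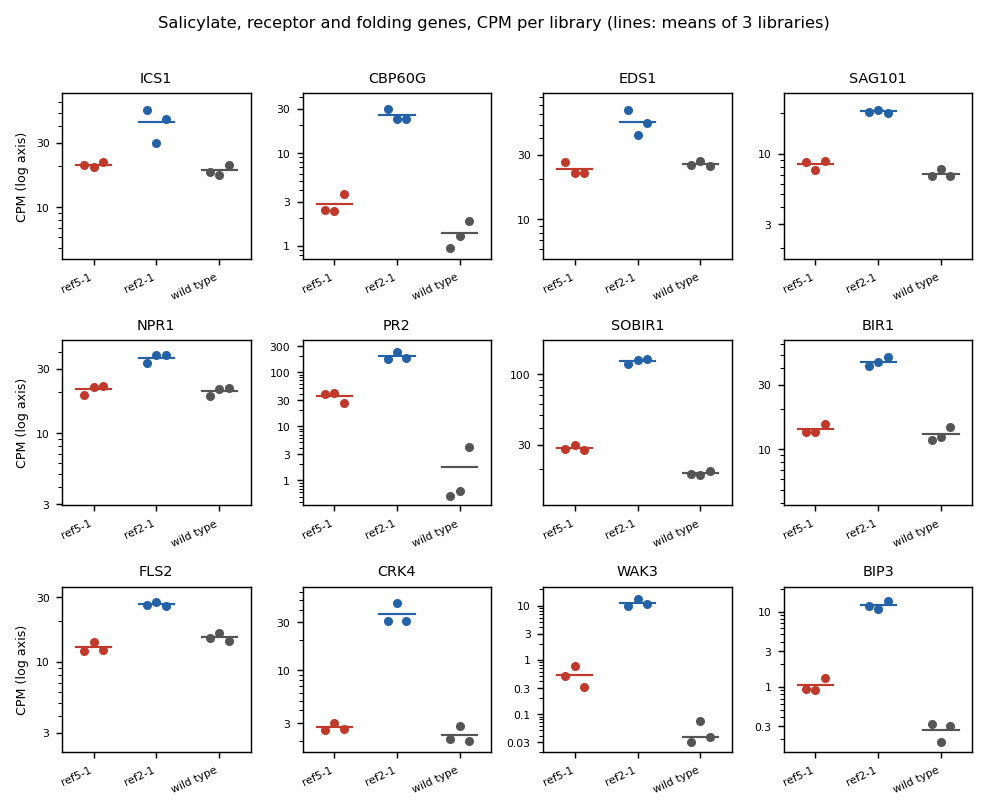
CPM per library (log axes, points are libraries, lines are means of 3) for 12 genes of salicylate signalling, immune receptors, receptor-like kinases and protein folding in ref5-1, ref2-1 and wild type. Every ref2-1 library lies above every ref5-1 library in all 12 panels. A library at 0 is drawn at 0.03 CPM.

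Protein folding in the endoplasmic reticulum was lower in ref5-1 in 7 of 14 tested genes. BIP3, the stress-induced chaperone, had 0.952, 0.924 and 1.32 CPM in ref5-1, against 11.98, 10.98 and 13.96 CPM in ref2-1 and 0.319, 0.188 and 0.304 CPM in wild type (-3.52 ± 0.58 between the mutants, adjusted p = 0.000863). ERDJ3A, a co-chaperone, differed by -1.64 ± 0.23, and CRT3, the calreticulin that folds EFR, by -1.21 ± 0.24. The abundant chaperones BIP1 and BIP2 were not called, at -0.17 ± 0.14 and -0.20 ± 0.14. Of 6 genes of rapid stress responses, 5 were lower. The calmodulin-like gene TCH3 had 16.2, 16.8 and 15.01 CPM in ref5-1 and 152, 86.2 and 136 CPM in ref2-1 (-2.96 ± 0.50, adjusted p = 0.00122). The others were ZAT10, ZAT12, ERF6 and CML38, and ERF5 was not called. That count was fragile, since it was 1 without ref2-1 replicate 1, 2 without ref5-1 replicate 2, ref5-1 replicate 3 or ref2-1 replicate 3, and 3 without ref5-1 replicate 1.

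Jasmonate genes showed how much single libraries differed. LOX2, which opens jasmonate synthesis, had 1566, 1226 and 1803 CPM in ref5-1, against 1419, 897 and 3291 CPM in ref2-1 and 600.3, 528 and 2406 CPM in wild type. AOC1, the cyclase, had 95.8, 77.85 and 109.5 CPM in ref5-1, 89.1, 62.4 and 296 CPM in ref2-1 and 34.8, 42.7 and 209 CPM in wild type. Replicate 3 was the highest library of ref2-1 and of wild type for both genes, and the mutants overlapped. The share of all tested genes called lower in ref5-1 than in ref2-1 was 11%. Of 14 tested jasmonate genes, 1 was called by edgeR, and 2 by DESeq2 and with the 6 libraries fitted alone. It was the factor gene ORA59, lower by 2.77 ± 0.68 on the log2 scale. PDF1.2A, a defensin gene below ORA59, had 0.0828, 0.0402 and 0.0803 CPM in ref5-1, against 9.62, 0.865 and 7.20 CPM in ref2-1, and was not called (adjusted p = 0.0919).

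Cold and dehydration genes were higher in ref5-1. Of 11 tested, 10 were higher and none lower, with a median of 1.97. COR15B, a chloroplast protein that protects membranes on freezing, had 80.9, 61.3 and 75.4 CPM in ref5-1, against 9.66, 12.4 and 9.38 CPM in ref2-1. Wild type had 9.93, 4.91 and 14.2 CPM and overlapped ref2-1 (2.78 ± 0.39 between the mutants, adjusted p = 0.000297). RAB18, a dehydrin, had 18.6, 13.7 and 12.5 CPM in ref5-1, 4.69, 3.06 and 4.21 CPM in ref2-1 and 7.69, 4.57 and 7.78 CPM in wild type. CBF3, a factor that switches on such genes in the cold, was the 1 tested member not called (0.95 ± 0.55, adjusted p = 0.239), and CBF1 and CBF2 were too low to test. Against wild type, 10 of the 11 were called higher in ref5-1, and 2 were called lower in ref2-1.

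In abscisic acid signalling, calls went in both directions. Of 7 tested PP2C phosphatases, which block the pathway and are induced by it, 6 were higher in ref5-1 than in ref2-1. ABI2 had 24.0, 25.6 and 23.4 CPM in ref5-1, against 12.4, 13.3 and 11.2 CPM in ref2-1 and 15.2, 13.1 and 15.4 CPM in wild type (0.98 ± 0.13 between the mutants, adjusted p = 4.42e-05). HAI1, HAB1, ABI1 and PP2CA were higher by 0.49 to 1.58. HAB2 was not called between the mutants, and all 7 were called higher in ref5-1 than in wild type.

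Lower in ref5-1 were PYL4, PYL5 and PYL6, which encode 3 of the receptors of the hormone. PYL4 had 9.07, 9.003 and 7.67 CPM in ref5-1, against 29.2, 28.5 and 33.8 CPM in ref2-1 and 10.9, 17.7 and 14.4 CPM in wild type. The 3 genotypes did not overlap, with wild type in the middle (-1.83 ± 0.32 between the mutants, adjusted p = 0.00125). PYL5 had 1.78, 1.246 and 1.12 CPM in ref5-1 and 4.18, 4.49 and 4.80 CPM in ref2-1. PYL6 had 0, 0.0402 and 0.0401 CPM in ref5-1 and 0.67, 1.86 and 1.27 CPM in ref2-1. They were the 3 genes called lower among 12 further genes of the pathway, of which 8 were higher, and the rest of the receptor family was not on the list.

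Among those 8 were synthesis and response genes. NCED3, the rate-limiting enzyme of abscisic acid synthesis under drought, had 9.23, 10.7 and 9.75 CPM in ref5-1, against 2.37, 2.63 and 1.95 CPM in ref2-1 (2.09 ± 0.38, adjusted p = 0.00136). P5CS1, of proline synthesis, had 606, 678 and 703 CPM in ref5-1 and 268, 201 and 229 CPM in ref2-1. The factor gene ABF3 had 136, 87.9 and 78.6 CPM in ref5-1 and 44.4, 42.4 and 37.7 CPM in ref2-1. Of 5 tested genes of galactinol and raffinose synthesis, 3 were higher too. GolS4, the rarest of these, lost its call (adjusted p up to 0.0929) when ref5-1 replicate 1 or 2 or ref2-1 replicate 1 or 3 was left out. GolS1 and RS5 were not called.

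**Figure D4:**
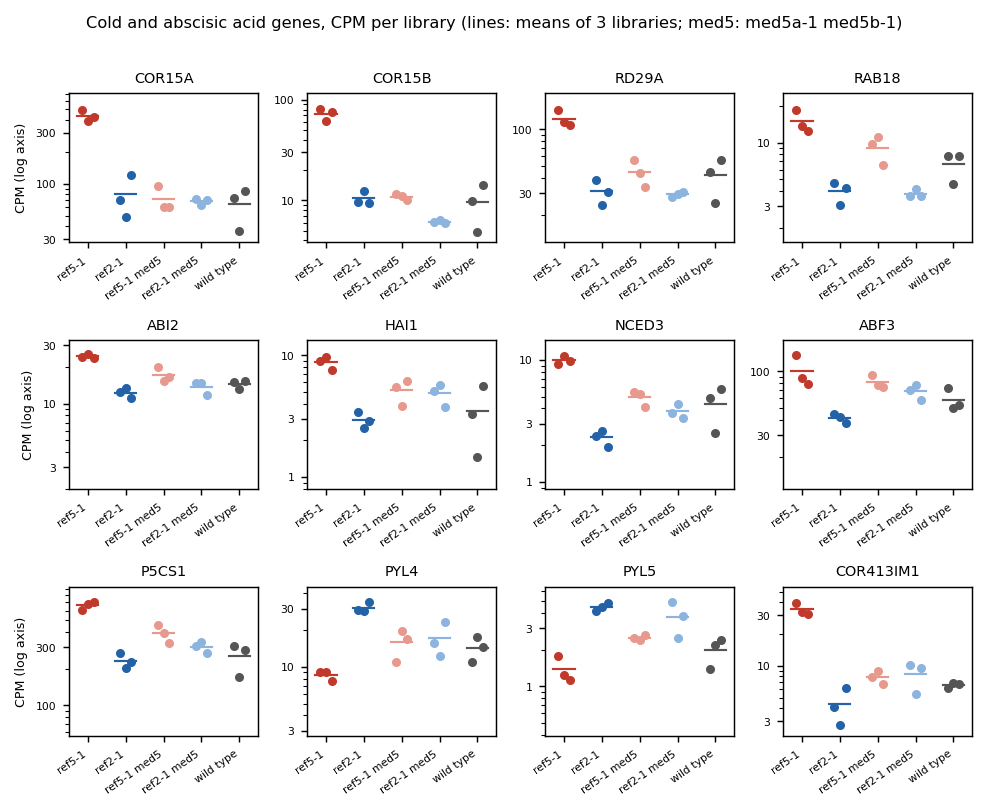
CPM per library (log axes, points are libraries, lines are means of 3) for 12 cold and abscisic acid genes in ref5-1, ref2-1, the same lesions with med5a-1 med5b-1 (med5), and wild type. For COR15A the ref5-1 libraries lie between 385 and 498 CPM, above every library of the other 4 genotypes, and for PYL4 they lie below all others.

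Phenylpropanoid genes were slightly higher in ref5-1, in 14 of 22 tested genes, with a median of 0.34. C4H, which follows phenylalanine ammonia lyase, had 234, 213 and 203 CPM in ref5-1, against 168, 149 and 158 CPM in ref2-1 and 215, 226 and 242 CPM in wild type (0.455 ± 0.08 between the mutants, adjusted p = 0.000446). PAL4, a phenylalanine ammonia lyase, had 7.24, 9.53 and 10.8 CPM in ref5-1 and 4.81, 3.33 and 2.36 CPM in ref2-1. ALDH2C4, the aldehyde dehydrogenase that makes ferulate and sinapate, was the 1 gene called lower, at 109, 107 and 104 CPM in ref5-1 and 152, 168 and 143 CPM in ref2-1 (-0.53 ± 0.08, adjusted p = 0.000264). Against wild type, 3 genes were called higher and 2 lower in ref5-1, and 2 higher and 12 lower in ref2-1.

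Xylem markers were also mostly higher in ref5-1 than in ref2-1. Of 10 tested, 8 were higher in ref5-1 and none lower, and their summed level ran from 132 to 222 CPM in ref5-1, from 89.4 to 125 CPM in ref2-1 and from 156 to 201 CPM in wild type. No xylem marker was at 0 in any of these libraries. CESA4, a cellulose synthase of secondary walls, had 15.3, 23.0 and 21.9 CPM in ref5-1, against 13.8, 10.6 and 12.9 CPM in ref2-1. The lowest ref5-1 library was replicate 1 for all 10 markers, and without ref2-1 replicate 2 the called markers fell to 5. Between the lesions without MED5, 11 of the 22 phenylpropanoid genes were called higher and none lower. There edgeR called no xylem marker, where 2 had an unadjusted p under 0.05 and DESeq2 called 0. The part of xylem content in the phenylpropanoid difference was not tested.

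Repressors of the phenylpropanoid pathway were called between the 2 mutants about as often as all tested genes. The share over all tested genes was 10.4% called higher in ref5-1 than in ref2-1 and 11% called lower. KFB39, an F-box protein through which phenylalanine ammonia lyase is degraded, had 70.5, 52.5 and 72.4 CPM in ref5-1, against 63.6, 68.9 and 63.8 CPM in ref2-1 and 11.4, 12.2 and 12.3 CPM in wild type. Both mutants stood above wild type without overlap, by 2.45 ± 0.13 each on the log2 scale, and differed from each other by -0.01 ± 0.12. KFB50 had 145, 106.5 and 119.6 CPM in ref5-1, 109.5, 123 and 114 CPM in ref2-1 and 54.2, 58.1 and 66.6 CPM in wild type, a difference between the mutants of 0.10 ± 0.14. Of the 9 tested genes, MYB3 was called higher in ref5-1 and MYB4 lower, and both calls were lost with the 6 libraries fitted alone (adjusted p = 0.0766 and 0.173). The count of 1 higher fell to 0 without ref5-1 replicate 1, ref2-1 replicate 1 or ref2-1 replicate 3, and the count of 1 lower without ref5-1 replicate 2, ref5-1 replicate 3 or ref2-1 replicate 2. KFB01, KFB20, KFB-CHS, MYB7 and MYB32 were not called.

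Of 17 flavonoid genes, 4 were called higher in ref5-1, TT8, CHIL, CHI and UGT75C1. TT8, a factor of anthocyanin synthesis, had 10.2, 9.04 and 8.51 CPM in ref5-1 and 5.01, 3.39 and 3.49 CPM in ref2-1 (1.22 ± 0.20, adjusted p = 0.00041). ref2-1 replicate 1 was the highest ref2-1 library for all 4, and the count was 10 without it. It was 1 without ref5-1 replicate 1, ref2-1 replicate 2 or ref2-1 replicate 3, and 2 without ref5-1 replicate 2 or with no filter on low counts.

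The remaining groups are given more briefly. Of 17 photosynthesis genes, 9 were higher in ref5-1, with a median of 0.25, a count that was 5 without ref5-1 replicate 1 or ref2-1 replicate 1 and 1 with the 6 libraries fitted alone. None of 6 cell cycle genes was called by edgeR between the mutants, where 1 had an unadjusted p under 0.05 and DESeq2 called 0, and 1 was called higher without ref5-1 replicate 1. Against wild type, 5 were called lower in ref5-1 and 6 in ref2-1. In the clock, CCA1 was higher by 0.39 ± 0.06 and TOC1, PRR7, ELF3 and LUX were lower by 0.37 to 0.68 on the log2 scale. With the 6 libraries fitted alone 2 of the 4 were lower, since PRR7 and ELF3 lost their calls (adjusted p = 0.0885 and 0.0613), and PRR7 also lost its call without ref2-1 replicate 2 (0.059) and LUX without ref5-1 replicate 1 (0.0517). SOC1, an activator of flowering, had 116, 105 and 98.2 CPM in ref5-1 and 53.7, 58.6 and 63.6 CPM in ref2-1. FSD1, an iron superoxide dismutase of chloroplasts, had 65.5, 74.4 and 84.0 CPM in ref5-1, against 225, 248 and 340.1 CPM in ref2-1 and 423, 376 and 263 CPM in wild type. Its ref5-1 libraries lay far below the others (-1.86 ± 0.33 between the mutants, adjusted p = 0.00146). Of the markers of other tissues, the 9 floral, 3 root and 3 trichome genes tested had no gene called by edgeR, where 2 floral, 2 root and 0 trichome genes had an unadjusted p under 0.05, and DESeq2 called 0 in each. Without ref5-1 replicate 2, 1 root gene was called higher. Of 3 tested meristem markers, 1 was higher, KNAT1, with 13.99, 14.3 and 13.5 CPM in ref5-1 and 10.7, 11.05 and 6.75 CPM in ref2-1, while CLV3 and WUS lay under 0.2 CPM in each of these libraries. KNAT1 lost its call with the 6 libraries fitted alone (adjusted p = 0.0542). Floral, root and trichome sums ran from 7.63 to 11.9, 15.2 to 16.0 and 15.2 to 20.9 CPM in ref5-1, against 8.02 to 9.34, 11.3 to 13.4 and 14.6 to 17.3 CPM in ref2-1. Of 7 stomatal markers 3 were higher in ref5-1, and 1 without ref5-1 replicate 2 or ref5-1 replicate 3 or with the 6 libraries fitted alone. Their sum ran from 61.2 to 78.8 CPM in ref5-1, from 58.4 to 60.5 CPM in ref2-1 and from 85.9 to 90.5 CPM in wild type.

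The extremes of the comparison included genes of no list. LTP4, a lipid transfer protein, had 8.53, 12.4 and 4.29 CPM in ref5-1, against 0.355, 0.133 and 0.0906 CPM in ref2-1 and 0.16, 0.0375 and 0.0759 CPM in wild type. AT4G15160, annotated as a lipid transfer or seed storage protein, had 7.74, 9.89 and 7.38 CPM in ref5-1 and 0.118, 0.466 and 0.136 CPM in ref2-1. Both stayed under 1 CPM in every ref2-1 and wild-type library. AT5G38020, annotated as a methyltransferase, had 13.1, 12.7 and 13.4 CPM in ref5-1, against 1.66, 1.23 and 0.952 CPM in ref2-1 (3.34 ± 0.23, adjusted p = 1.02e-07). AT5G37990, annotated likewise, and TPS12, a terpene synthase, differed by 4.68 ± 0.38 and 2.99 ± 0.33. The berberine enzyme family member AT5G44380 differed by 3.2 ± 0.40.

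At the other end of the comparison stood MRD1, annotated as a gene that goes down in the mto1 mutant. It had 0.29, 0.643 and 0.0803 CPM in ref5-1, against 30.6, 37.0 and 30.1 CPM in ref2-1 and 28.6, 27.9 and 29.7 CPM in wild type. With the MED5 insertions it had 0, 0.0942 and 0.144 CPM with ref5-1 and 9.45, 10.3 and 16.4 CPM with ref2-1. All 6 libraries of the lines with ref5-1 lay under 1 CPM. An effect of the allele and a difference of the ref5-1 seed stock at MRD1 itself cannot be told apart in these counts. IOS1, a receptor-like kinase, had 0.331, 0.201 and 0.321 CPM in ref5-1 and 10.01, 9.72 and 9.61 CPM in ref2-1. PNP-A, a secreted peptide, had 0.704, 0.362 and 0.441 CPM in ref5-1 and 18.3, 14.6 and 19.3 CPM in ref2-1.

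The same 2 lesions were then compared in plants with insertions in both MED5 genes, in libraries that share none with the main comparison. There, 1443 genes were called higher in ref5-1 med5a-1 med5b-1 than in ref2-1 med5a-1 med5b-1, or 7.25%, and 1348 were called lower, or 6.77%. Genes called in the same direction with and without functional MED5 numbered 1149, which is 27.0% of the calls with it and 41.2% of the calls without it. A further 34 were called in opposite directions. A test of the difference between the 2 comparisons called 255 genes, or 1.28%, whose log2 fold change was higher with MED5 than without it. For a further 330 genes, or 1.66%, the log2 fold change was called lower with MED5. A higher log2 fold change includes one that was only less negative. Of the 448 that were also called in ref5-1 against ref2-1, 439 had a test value of the same sign as their fold change there. These include genes whose direction reversed without MED5, such as MYB3, at 0.513 with it and -0.558 without it. Because the 448 were selected by their call with MED5, the count does not show in which background differences were larger. In ref5-1 med5a-1 med5b-1 replicate 1, 25.4% of the deposited counts stood in the line for reads with several alignments, against 4.94% to 8.91% in the 6 libraries with MED5. Without that library the difference was called for 1012 genes, and it was called for 74 without ref2-1 med5a-1 med5b-1 replicate 2.

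Most chain elongation, GH3 and Aux/IAA genes were called in both backgrounds. Without MED5, 9 of the 10 chain elongation genes were again lower, with a median of -1.15. All 7 GH3 genes and 11 Aux/IAA genes were again higher, with medians of 1.26 and 0.68. GH3.3 had 67.9, 88.8 and 83.3 CPM in ref5-1 med5a-1 med5b-1, against 18.2, 16.4 and 14.01 CPM in ref2-1 med5a-1 med5b-1. In the test of the difference, edgeR called none of the chain elongation genes and none of the GH3 genes. There 4 chain elongation genes and 1 GH3 gene had an unadjusted p under 0.05, and DESeq2 called 1 of each list. Other genes of these pathways were called there. GSTF11 of the aliphatic core, TAA1 and IAA14 had values of 0.97 ± 0.20, 1.06 ± 0.20 and 0.695 ± 0.18 (adjusted p = 0.0193, 0.0157 and 0.0415), and ESM1 had -1.03 ± 0.23 (adjusted p = 0.0303). The log2 fold change of GSTF11 was -0.378 with MED5 and -1.346 without it, and that of TAA1 was -0.231 and -1.29. For ESM1 it was 0.763 with MED5 and 1.795 without it. These genes differed more without MED5, whereas IAA14 differed more with it, at 1.366 against 0.671. Of the SAUR genes 6 were called higher, and SAUR67 was the 1 called in the test of the difference (1.34 ± 0.29, adjusted p = 0.0258).

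Fewer salicylate and receptor genes were called between the mutants without MED5. Without MED5, 1 of 15 salicylate genes and 2 of 16 receptor genes were called lower, where 6.77% of all tested genes were. None of the CRK and WAK genes was called there by edgeR, while 2 had an unadjusted p under 0.05 and DESeq2 called 0. FLS2 had 14.04, 19.9 and 16.2 CPM in ref5-1 med5a-1 med5b-1 and 22.6, 20.2 and 22.0 CPM in ref2-1 med5a-1 med5b-1. In the test of the difference FLS2 had -0.70 ± 0.145 (adjusted p = 0.02). Called lower in that test were 6 of 16 receptor genes, 3 of 15 salicylate genes and 2 of 12 CRK and WAK genes. The share over all tested genes was 1.66%. CRK4 had 6.70, 17.3 and 19.4 CPM in ref5-1 med5a-1 med5b-1 and 23.8, 24.5 and 44.4 CPM in ref2-1 med5a-1 med5b-1. For CRK4, replicate 1 of ref5-1 med5a-1 med5b-1 was the lowest of these libraries.

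Among the cold genes, COR15A had 498, 385 and 423 CPM in ref5-1, against 70.4, 48.4 and 119 CPM in ref2-1. It had 94.8, 60.2 and 60.2 CPM in ref5-1 med5a-1 med5b-1, against 71.5, 62.5 and 70.1 CPM in ref2-1 med5a-1 med5b-1. For COR15A, ref5-1 stood apart with MED5 present, and the groups overlapped without it. Of the 11 tested cold and dehydration genes, 3 were called higher without MED5, with a median of 0.59. COR15A and RD29B were the 2 of them called in the test of the difference. Of 5 galactinol and raffinose genes, 3 were called higher without MED5 and 1 was called in that test. COR413IM1, a cold-induced membrane protein, had 39.0, 32.0 and 30.8 CPM in ref5-1 and 4.14, 2.80 and 6.21 CPM in ref2-1. Without MED5 it had 7.81, 8.92 and 6.79 CPM with ref5-1 and 10.2, 5.47 and 9.47 CPM with ref2-1, and its test of the difference gave 3.06 ± 0.33 (adjusted p = 0.000579). No PP2C gene was called between the mutants without MED5 by edgeR, where 2 had an unadjusted p under 0.05 and DESeq2 called 1. In the test of the difference edgeR called 1 of 7 PP2C genes, HAI2. There 5 had an unadjusted p under 0.05 and DESeq2 called 5.

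**Figure D5:**
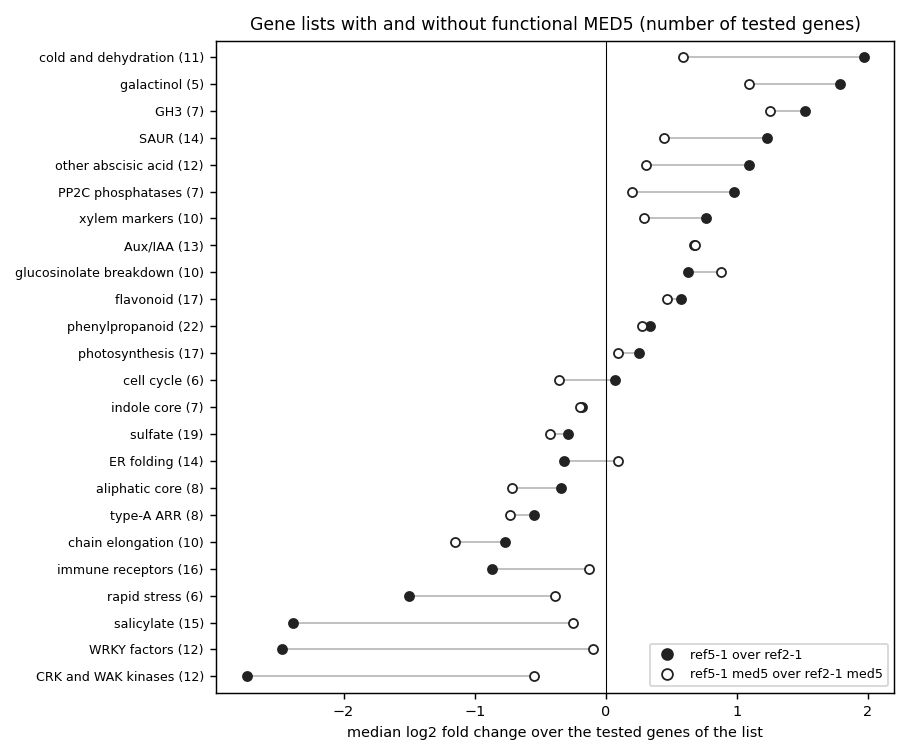
Median log2 fold change over the tested genes of 24 lists (numbers tested in brackets), for ref5-1 over ref2-1 as filled points and for ref5-1 med5 over ref2-1 med5 as open points. The GH3 and Aux/IAA medians lie right of 0 in both, and the salicylate median is -2.39 with MED5 and -0.25 without it.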

How the data were processed

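RNA-seq read counts per gene were deposited by the authors as 1 table of raw counts with 1 column per library. Per the submitters' processing notes, Trimmomatic, TopHat2 2.1.0, HTSeq 0.6.1, edgeR and the build TAIR10 were used. The labels name a stranded mRNA kit, and the strand setting of the counting is not given in the sources used here, so that overlapping antisense genes cannot be told apart. The 5 summary lines were left out of library sizes and tests.

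All 18 libraries of the 6 genotypes were fitted together with edgeR 4.0.16 (R 4.3.3, limma 3.58.1): TMM factors, filterByExpr, which left 19897 of 33602 gene IDs, and the robust quasi-likelihood test. A gene was called at a Benjamini-Hochberg adjusted p under 0.05 over all tested genes, and every adjusted p is from this test unless DESeq2 is named. CPM values use the TMM library sizes. Standard errors were derived from the fold change and the F statistic. A level of 1 CPM stood for about 22 to 28 counts in the libraries of ref5-1 and ref2-1, which sets the precision of low values.

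Alternatives were RLE factors, no filter on low counts, a replicate block, DESeq2 1.42.0, the 6 compared libraries alone and leaving out each of 15 libraries in turn. Same-numbered libraries of ref5-1 and ref2-1 did not deviate together (r = -0.132, -0.101 and -0.031), so that numbers were not treated as pairs. For ref2-1 and wild type, same-numbered libraries gave r = 0.077, 0.183 and 0.338, and the other pairs -0.235 to 0.133. Any structure these libraries share by replicate number was left out of the reported fit. Each library is a separate pool of plants. Replicates differed by more than sampling noise.

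Gene symbols and annotations come from the TAIR10.1 gene table, in which 32835 IDs matched. Its build differs from that of the files, so that coordinates, sequences and promoter motifs were not analysed here. The comparison, the gene lists and the tests were chosen with earlier results of these data known. Named genes are the genes of the labels, the 12 highest and 12 lowest called fold changes with at least 5 CPM and no overlap, up to 5 called members per list, every member of lists of at most 10, and the 8 highest and 8 lowest called differences between the backgrounds. Other genes of the longer lists, such as ICS1, CBP60G, PR2, CRK7, LOX2, AOC1, PDF1.2A, BIP1, BIP2, NCED3, P5CS1, PYL4, PAL4, IAA4, IAA30 and the CBF genes, were chosen after their values were seen.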

Additional observations from a re-analysis of the deposited data

Results flagged for a closer look

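The log2 fold change of ref5-1 over ref2-1 was tested for a difference between plants with MED5 and plants with med5a-1 med5b-1. By edgeR at an adjusted p under 0.05, it was higher with MED5 for 255 genes and lower for 330. The 16 genes given here are the extremes of that test at a level of at least 5 CPM, and each value is the log2 difference between the 2 comparisons.

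On the higher side were COR413IM1 at 3.061, GolS2 at 2.82, HAI2 at 2.573, COR15A at 2.383, AFP1 at 2.262 and AT3G53980 at 2.225, cold, raffinose and abscisic acid genes for the most part. Each was called higher in ref5-1 than in ref2-1 with MED5. Of these 6, GolS2 was also called higher without MED5, with 13.6, 18.7 and 11.4 CPM in ref5-1 med5a-1 med5b-1 and 4.70, 4.89 and 4.67 CPM in ref2-1 med5a-1 med5b-1.

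ASPGB1, an asparaginase gene, stood at 3.371 and AT2G47880, a glutaredoxin gene, at 2.73, by another route. ASPGB1 had 1.08, 1.41 and 1.28 CPM in ref5-1 and 1.46, 1.73 and 1.81 CPM in ref2-1. With the insertions ASPGB1 had 0.528, 1.07 and 0.914 CPM in ref5-1 med5a-1 med5b-1 and 15.2, 11.8 and 8.68 CPM in ref2-1 med5a-1 med5b-1. AT2G47880 had 1.82, 1.49 and 2.53 CPM in ref5-1 and 4.38, 5.59 and 4.94 CPM in ref2-1. With the insertions AT2G47880 had 0.317, 0.597 and 0.481 CPM in ref5-1 med5a-1 med5b-1 and 8.56, 7.28 and 8.94 CPM in ref2-1 med5a-1 med5b-1. Both were lower with ref5-1 by more in the plants without MED5, and both kept their call with any 1 library left out, as did COR413IM1.

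On the lower side were AIG1 at -4.867, Prx37 at -4.917, AT5G25260 at -4.939, FRK1 at -5.203, AT4G12490 at -5.615, AT1G51890 at -5.685, PCR1 at -6.769 and PR1 at -8.609. For PR1, a secreted defence protein, the libraries had 0.662, 0.563 and 0.762 CPM in ref5-1 and 143, 397 and 194 CPM in ref2-1. With the insertions PR1 had 31.2, 127 and 138 CPM in ref5-1 med5a-1 med5b-1 and 56.2, 123 and 100.5 CPM in ref2-1 med5a-1 med5b-1, which overlapped. PR1 lost its call without ref2-1 med5a-1 med5b-1 replicate 1 (adjusted p = 0.0549) or replicate 2 (adjusted p = 0.0569). AT4G12490 was the 1 gene of these 8 not called between ref5-1 and ref2-1 (adjusted p = 0.0514), and it was called higher in ref5-1 med5a-1 med5b-1 than in ref2-1 med5a-1 med5b-1.

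Besides PR1, the other 12 genes given here lost their call in at least 1 of the 12 fits with a library left out. All 12 did so without ref2-1 med5a-1 med5b-1 replicate 2. For AT3G53980 that was the 1 library, and GolS2 lost the call in 5 fits, AFP1, AT5G25260 and FRK1 in 7, AIG1 and COR15A in 9, HAI2, AT4G12490, AT1G51890 and PCR1 in 10, and Prx37 in 11. The largest adjusted p among them was 0.131, for HAI2.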

How the results depend on the processing

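The calls in ref5-1 against ref2-1 numbered 4258, between 4013 and 4333 with RLE factors, no filter on low counts, the replicate block or DESeq2, and 2816 with the 6 libraries fitted alone, of which 2688 were shared. Leaving out 1 library gave 3072 to 4030, with the lowest without ref2-1 replicate 2. For ref5-1 med5a-1 med5b-1 against ref2-1 med5a-1 med5b-1, the count of 2791 ran from 1421, without ref2-1 med5a-1 med5b-1 replicate 2, to 2599. The difference between the 2 comparisons depended most on the settings: 585 genes in the fit reported, 1002 with the replicate block, 1252 with DESeq2, and from 74 to 1012 with 1 library left out. The calls in ref5-1 against wild type numbered 1735, and 1057 with the 6 libraries alone, and ran from 716, without wild type replicate 2, to 1695. For ref2-1 against wild type they numbered 4915 and ran from 3585 to 4551. The block used replicate numbers, which did not pair the libraries of ref5-1 with those of ref2-1, and it gave 4286 calls between these mutants. In ref2-1 against wild type it gave 4979 calls. Over the named genes, 1941 values under an alternative kept their direction and side of the threshold, 273 kept the direction and lost the call, and none reversed. Of the counts over lists, 907 stayed within 1.5 times the reported count and 105 did not. The 907 include counts of 0 that stayed at 0. The cause of these changes was not tested. Groups of 3 libraries and levels under 1 CPM limit what could be called.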

Other observations

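Of 9 tested glutaredoxin genes of the CC type, 3 were lower in ref5-1 than in ref2-1. GRXS11 had 3.11, 3.01 and 4.17 CPM in ref5-1, against 8.08, 10.8 and 10.7 CPM in ref2-1 and 8.13, 9.90 and 7.59 CPM in wild type (-1.52 ± 0.20, adjusted p = 4.31e-05). Its ref5-1 libraries lay below all the others. GRXS4 and GRXS13 both lost their calls without ref5-1 replicate 1 or ref2-1 replicate 3 (adjusted p up to 0.111 and 0.182), which leaves 1 gene. FRO3, a ferric reductase of mitochondria, had 10.3, 13.02 and 10.8 CPM in ref5-1, against 24.3, 22.0 and 22.8 CPM in ref2-1 and 10.4, 13.4 and 11.5 CPM in wild type (-1.02 ± 0.16, adjusted p = 0.000266). For FRO3, ref5-1 overlapped wild type and ref2-1 lay above both.

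Of 11 tested genes of senescence and sugar starvation, SAG13, SAG21 and NYC1 were lower in ref5-1 than in ref2-1. SAG21 had 10.5, 10.7 and 6.98 CPM in ref5-1, against 32.4, 35.2 and 33.7 CPM in ref2-1 and 6.78, 6.04 and 9.26 CPM in wild type (-1.85 ± 0.36, adjusted p = 0.00263). SAG13 lost its call without any 1 of the ref5-1 libraries, ref2-1 replicate 2 or ref2-1 replicate 3 (adjusted p up to 0.19). None was called higher by edgeR, except that 2 were without ref2-1 replicate 2.

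AKR4C9, a reductase of reactive carbonyls, had 24.3, 25.3 and 26.6 CPM in ref5-1, against 26.8, 23.4 and 29.2 CPM in ref2-1 and 5.06, 3.64 and 11.04 CPM in wild type. The mutants overlapped and differed by -0.06 ± 0.26 on the log2 scale, and both lay above wild type. Of 9 genes that answer to reactive electrophiles, AER was the 1 called between the mutants, lower in ref5-1 by 0.36 ± 0.10 on the log2 scale. The share of all tested genes called lower was 11%. AER lost its call without ref5-1 replicate 2, ref5-1 replicate 3 or ref2-1 replicate 1 (adjusted p up to 0.0867).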
